A study of Mus musculus with 11 samples.

Results

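Acetylcholine reaches its target cells through 2 families of receptors, and transcripts of 10 receptor genes, 4 muscarinic (Chrm1, Chrm2, Chrm3 and Chrm4) and 6 nicotinic (Chrna3, Chrna4, Chrna5, Chrna7, Chrnb2 and Chrnb4), were examined in sorted neurons of the mouse medial prefrontal cortex (mPFC). The genes were chosen by symbol, and all 10 were found among the 53465 genes of the count files. Of these, 7 passed the low-count filter and entered the comparison of 17093 genes, whereas Chrna3, Chrna5 and Chrnb4 stayed below it. The cells were mPFC CRF1+ neurons, collected by fluorescence-activated cell sorting for the GFP that marks cells expressing the corticotropin releasing factor receptor CRF1 in male CRF1:GFP mice at least 10 weeks old. Naïve mice (n = 6) had been injected with the alcohol dehydrogenase inhibitor pyrazole and kept in chambers with air, and withdrawn mice (n = 5) had been given ethanol with pyrazole and 5 to 6 weeks of chronic intermittent ethanol vapor, followed by 5 to 8 days of abstinence. Each library came from 1 mouse. For 3 of the 5 withdrawn mice (3, 4 and 5) the source name of the sample says control and repeats the animal number of a naïve mouse, while the titles give each mouse a number of its own, and the design text of the series lists 5 control and 6 ethanol animals. Whether these 3 samples are labelled correctly could not be settled, so edgeR values without them are given beside the results for the receptor genes in the fit and for the pathway genes whose tests are printed. Only withdrawn mice 1 and 2 then remain against the 6 naïve mice.

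Muscarinic receptors are single proteins that act through G proteins. M1 and M3, encoded by Chrm1 and Chrm3, couple to Gq and phospholipase C and in cortical pyramidal neurons are known for closing M-type potassium channels, whereas M2 and M4, encoded by Chrm2 and Chrm4, couple to Gi and Go, lower cyclic AMP and open GIRK channels. Nicotinic receptors are cation channels built from several subunits. In cortex the common forms combine α4 (Chrna4) with β2 (Chrnb2), with α5 (Chrna5) as an accessory subunit in some of them, or consist of α7 (Chrna7), while α3 (Chrna3) and β4 (Chrnb4) are best known from peripheral ganglia and the habenula. Acetylcholine in the mPFC comes mainly from axons of the basal forebrain.

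The sorted cells carried markers of glutamatergic neurons, whose 8 listed genes summed to 2055 to 3417 CPM (counts scaled to 1000000 per library, with TMM-normalized library sizes) in naïve and 1466 to 3047 CPM in withdrawn mice. Crhr1, the gene for CRF1, ranged from 69.1 to 119 CPM in naïve and from 42.2 to 136 CPM in withdrawn mice. GABAergic markers were also present (105 to 940 CPM in naïve mice and 33.5 to 741 CPM in withdrawn mice), but single genes of this list differed. Sst had 699, 473 and 289 CPM in naïve mice 1, 2 and 6, and at most 23.3 CPM in other naïve and 32.6 CPM in withdrawn mice. Gad1 (325 and 277 CPM) and Vip (149 and 259 CPM) were highest in withdrawn mice 1 and 2. The 5 genes that define cholinergic neurons summed to at most 11.6 CPM in any mouse, with Lhx8 and Gbx1 at 0 in most mice. The sum of 8 fibroblast markers ranged from 0.0677 to 73.1 CPM in naïve mice and from 18.4 to 1318 CPM in the withdrawn group (p = 0.0173 by a two-sided exact permutation test and 0.156 after adjustment over 18 marker and library measures). Astrocyte markers summed to 294 to 530 CPM in naïve and 250 to 630 CPM in withdrawn mice. Endothelial markers varied widely, from 3.18 to 627 CPM and from 38.2 to 481 CPM, and mural markers reached 159 and 202 CPM. Which cells the receptor transcripts came from was not tested. Between 7351567 and 22244869 reads fell on genes in each mouse, so that 3 counts, the floor used here, corresponded to 0.140 to 0.369 CPM. The share of tallied reads on genes was lowest in withdrawn mice 4 (42.0%) and 2 (49.8%) and highest in naïve mouse 5 (81.1%). Naïve mouse 5 had the fewest genes detected, 15585. In sorted bulk samples of this kind, fewer cells expressing a gene and less RNA of that gene per cell cannot be told apart.

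Among the nicotinic genes, Chrna4 was the most abundant and the 3 genes that stayed below the filter lie side by side in 1 cluster. The upstream sequences of these genes are shown because they set the highest nicotinic gene beside the cluster. On GRCm38, Chrna5 (ENSMUSG00000035594, plus strand), Chrna3 (ENSMUSG00000032303, minus strand) and Chrnb4 (ENSMUSG00000035200, minus strand) occupy chr9:54980880-55048779, a span of 67.9 kb, with 2331 bases between Chrna5 and Chrna3 and 1591 bases between Chrna3 and Chrnb4. Chrna4 (ENSMUSG00000027577, minus strand) lies at chr2:181018380-181043546. The sequences below are the 250 bases before each RefSeq transcription start (GRCm38.p6), written 5′ to 3′ on the gene's strand, with the GC box GGGCGG, or its reverse complement CCGCCC, in capitals.
Chrna4, chr2:181039178-181039427 (minus strand): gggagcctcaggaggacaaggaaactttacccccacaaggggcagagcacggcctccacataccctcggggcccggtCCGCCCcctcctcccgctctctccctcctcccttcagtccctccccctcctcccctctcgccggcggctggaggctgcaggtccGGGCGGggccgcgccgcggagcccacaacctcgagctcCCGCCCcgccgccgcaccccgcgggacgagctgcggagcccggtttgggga
Chrna5, first start, chr9:54980630-54980879 (plus strand): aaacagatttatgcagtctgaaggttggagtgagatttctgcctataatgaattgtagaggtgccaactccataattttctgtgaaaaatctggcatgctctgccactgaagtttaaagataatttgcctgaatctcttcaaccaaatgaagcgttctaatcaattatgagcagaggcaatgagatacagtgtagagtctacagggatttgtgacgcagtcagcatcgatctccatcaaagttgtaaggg
Chrna5, second start, chr9:54981238-54981487 (plus strand): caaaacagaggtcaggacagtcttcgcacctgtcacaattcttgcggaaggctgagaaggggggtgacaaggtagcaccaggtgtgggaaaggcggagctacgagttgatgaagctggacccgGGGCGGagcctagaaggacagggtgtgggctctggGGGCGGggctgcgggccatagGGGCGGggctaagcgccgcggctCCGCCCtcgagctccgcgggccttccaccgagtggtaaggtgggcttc
Chrna3, chr9:55026563-55026812 (minus strand): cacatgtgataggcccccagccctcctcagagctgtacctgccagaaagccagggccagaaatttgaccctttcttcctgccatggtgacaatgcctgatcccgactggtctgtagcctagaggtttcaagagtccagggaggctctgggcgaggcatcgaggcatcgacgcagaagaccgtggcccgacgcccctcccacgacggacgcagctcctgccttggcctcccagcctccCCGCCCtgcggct
Chrnb4, chr9:55048545-55048794 (minus strand): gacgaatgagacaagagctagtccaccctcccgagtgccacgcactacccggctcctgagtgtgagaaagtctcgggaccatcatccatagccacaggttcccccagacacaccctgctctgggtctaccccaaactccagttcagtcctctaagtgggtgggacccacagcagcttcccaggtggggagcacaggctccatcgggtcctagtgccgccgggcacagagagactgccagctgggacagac

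A GC box was found in 6 of the 10 windows (60%) that the RefSeq table holds for 9 of the receptor genes, against 32.7% of all 32851 windows of this length. Chrna4 had 3 boxes, Chrna3 had 1 and Chrnb4 had none, while Chrna5 had none before its first start and 4 before its second. Chrm4 had 3 boxes, Chrm2 and Chrna7 had 1 each, and Chrm3 and Chrnb2 had none. The table has no window for Chrm1. CpG dinucleotides were more frequent than the median of all windows, 6, in 9 of the 10, and the exception was the first start of Chrna5, with 3. A match is a description of the letters in these windows and says nothing about binding of a factor.

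The order of levels was led by a muscarinic gene. Levels of different genes are compared as TPM, that is, counts divided by the summed exon length of the gene and scaled to 1000000 per mouse. Chrm1 had the highest median over the 11 mice, 128 TPM, above 92.6% of all tested genes, and was higher than the next gene, Chrna4 (36.3 TPM), in 11 of 11 mice with ranges that did not overlap. Chrm4 followed with 29.3 TPM, and since Chrna4 exceeded it in only 7 of 11 mice these neighbours did not differ beyond the spread between mice. Chrm4 was higher than Chrm3 (10.8 TPM) in 10 of 11 mice, and Chrm3 was higher than Chrm2 (8.90 TPM) in 10 of 11 mice, although in both cases the ranges over all mice overlapped.

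The lower places in the order were closer together. Chrm2 exceeded Chrnb2 (6.79 TPM) in 7 of 11 mice, namely in 2 of the 6 naïve and in 5 of the 5 withdrawn mice. Chrnb2 exceeded Chrna7 (4.86 TPM) in 5 of 11 mice, so that this pair had no order. Chrna7 was above Chrna3 (0.219 TPM) in 10 of 11 mice, withdrawn mouse 2 being the exception, and the medians of Chrna5 and Chrnb4 were 0 TPM. The annotation used for lengths has for Chrm4 (ENSMUSG00000040495, chr2:91927249-91928688) a single exon of 1440 bases, a multiple of 3 without UTRs, so that its level is per coding length. Chrm3 and Chrm2 were divided by summed exon lengths of 6253 and 6053 bases. In raw counts Chrm3 exceeded Chrm4 except in naïve mice 5 and 6 and withdrawn mouse 5. The place of Chrm4 in the order and the shares within the muscarinic genes are therefore not like for like.

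**Figure D1:**
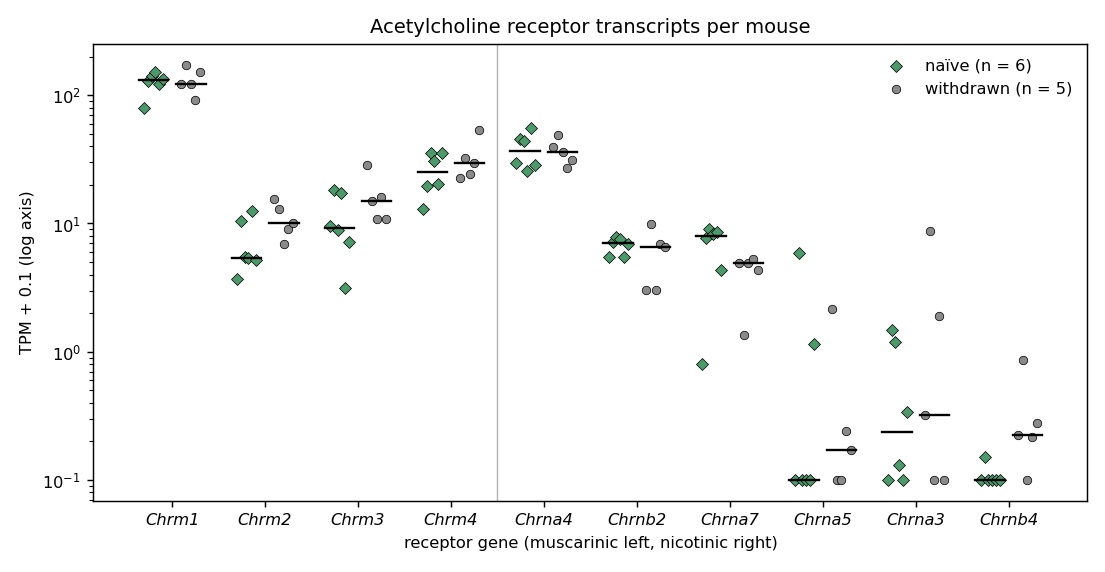
Levels of the 10 receptor genes in each mouse, as TPM plus 0.1 on a log axis, for naïve (green diamonds, n = 6) and withdrawn mice (grey circles, n = 5), with bars at the group medians. Chrm1 lies above all other genes in every mouse, and Chrna5, Chrna3 and Chrnb4 lie at 0 TPM (drawn at 0.1) in many mice.

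Summed over the 10 genes, receptor transcripts came to 141 to 302 TPM per mouse, and muscarinic genes made up 69.7% to 84.2% of this sum (median 77.9%, n = 11). Within the muscarinic genes, Chrm1 took 74.6% ± 1.69 (SD, n = 6) in naïve mice, where it lay between 72.8% and 77.6%. In withdrawn mice its share was 68.7% ± 5.38 (SD, n = 5), with 64.7%, 74.2%, 74.5%, 62.8% and 67.2% in mice 1 to 5. Withdrawn mice 1, 4 and 5 were below every naïve mouse on this share and withdrawn mice 2 and 3 lay within the naïve range. Within the nicotinic genes, Chrna4 took 62.0% to 83.0% over all mice, and Chrna4, Chrnb2 and Chrna7 together took 86.5% to 100%. The ratio of Chrna4 to Chrnb2, the pair that forms the common cortical receptor, varied from 3.41 to 13.6 among mice (median 5.51), and its highest values, 13.6 and 12.3, were those of withdrawn mice 1 and 3.

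**Figure D2:**
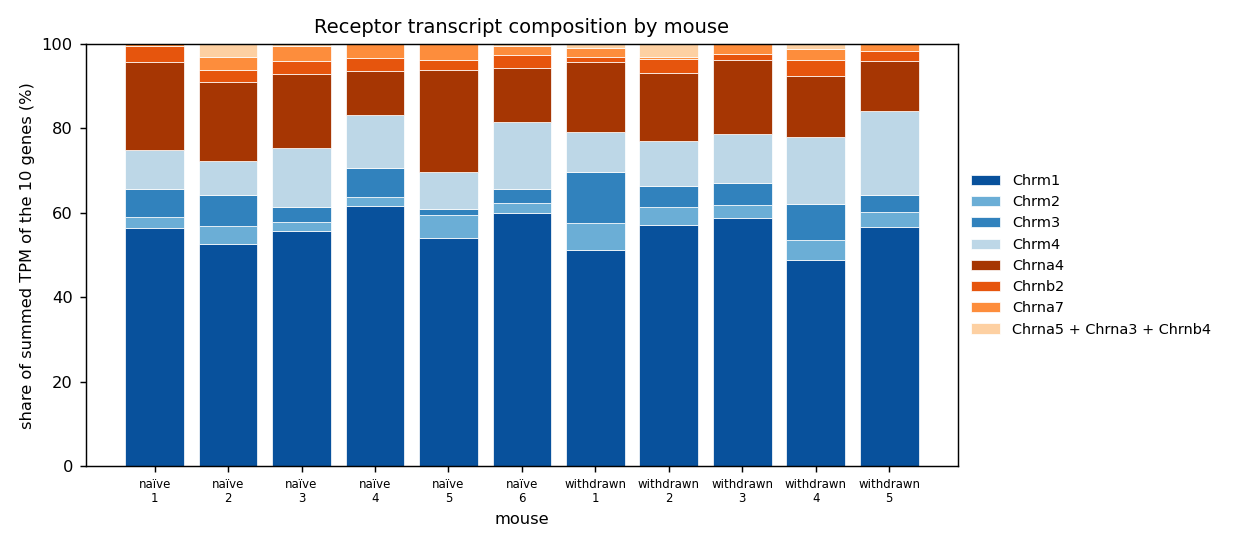
Share of each receptor gene in the summed TPM of the 10 genes, in percent, stacked for each of the 6 naïve and 5 withdrawn mice (blue, muscarinic; orange and brown, nicotinic). Muscarinic genes fill between 69.7% and 84.2% of each bar.

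The comparison of withdrawn with naïve mice asks whether the receptor genes of these neurons differed after chronic ethanol and abstinence. A gene was called where its adjusted p was 0.05 or less and its log2 fold change exceeded 0.6 up or down. By edgeR's quasi-likelihood test 0.00585% of all tested genes were called, and none of the 7 receptor genes. None had an unadjusted p under 0.05 (7.22% of all tested genes, made up of 5% that were higher and 2.22% that were lower), none was called by DESeq2's Wald test (1.66% of its 21849 genes), and for none did the groups fail to overlap (0.948% of tested genes). By limma's voom with quality weights 1 of the 7, Chrnb2, had an unadjusted p under 0.05, beside 8.75% of all tested genes. By sign, 3 of the 7 had a positive and 4 a negative log2 fold change, with a median of -0.01 against 0.02 for all tested genes. The positive ones were Chrm2, Chrm3 and Chrm4, and the 3 nicotinic ones were negative, but with DESeq2 size factors Chrm1 was also positive (0.015), and without the 3 mice Chrm4 turned negative (-0.055) and Chrna4 positive (0.072).

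Of the receptors coupled to Gq, Chrm1 (ENSMUSG00000032773, chr19:8663789-8683587, plus strand) had the smallest standard error of the 7 tested genes. It ranged from 79.6 to 151 TPM in naïve mice with a median of 130.4 TPM, and had 122, 173, 122, 91.2 and 152 TPM in withdrawn mice 1 to 5. In TPM both the highest and the second lowest of all mice were withdrawn, and the groups overlapped over most of their range. In CPM withdrawn mouse 4 (167 CPM) was the lowest of all, below the lowest naïve mouse (230 CPM). The log2 fold change of Chrm1 was -0.01 (SE 0.19, 95% interval -0.41 to 0.39, adjusted p = 0.994 in edgeR), so that at this spread the interval runs from 0.752-fold to 1.31-fold. Without the 3 mice the log2 fold change was 0.07. Chrm3 (ENSMUSG00000046159, chr13:9875486-10360847, minus strand) ranged from 3.06 to 18.1 TPM in naïve mice (median 9.16 TPM) and had 28.4, 14.8, 10.7, 15.9 and 10.8 TPM in withdrawn mice. Only withdrawn mouse 1 exceeded the highest naïve mouse, and the lowest mouse was naïve mouse 5. Its log2 fold change was 0.48 (SE 0.42, 95% interval -0.42 to 1.38, adjusted p = 0.877 in edgeR), 0.16 without withdrawn mouse 1 and 0.86 without the 3 mice.

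Of the receptors coupled to Gi and Go, Chrm2 (ENSMUSG00000045613, chr6:36388084-36528414, plus strand) had the lowest unadjusted p of the 7 genes. It ranged from 3.59 to 12.5 TPM in naïve mice, where 4 of the 6 lay at or below 5.33 TPM (median 5.32 TPM), and had 15.4, 12.9, 6.78, 8.90 and 9.94 TPM in withdrawn mice. All 5 withdrawn mice were above the naïve median on log2 CPM and 2 were above the highest naïve mouse, while naïve mice 2 and 5 lay among the withdrawn mice. Its log2 fold change was 0.56 (SE 0.36, 95% interval -0.20 to 1.32, unadjusted p = 0.138 and adjusted p = 0.816 in edgeR) and 0.90 without the 3 mice. Without naïve mouse 5, the library with the fewest genes and the naïve mouse highest in Chrm2, it was 0.78 (unadjusted p = 0.0311 in edgeR, above the adjusted threshold). Without withdrawn mouse 1, the highest of all in Chrm2, it was 0.38 (unadjusted p = 0.341 in edgeR). Without withdrawn mouse 2 it was 0.46 (unadjusted p = 0.240 in edgeR). Chrm4 ranged from 12.9 to 35.5 TPM in naïve mice (median 25.2 TPM) and had 22.5, 32.4, 24.3, 29.3 and 53.4 TPM in withdrawn mice. Withdrawn mouse 5 alone was above the naïve range. The log2 fold change of Chrm4 was 0.25 (SE 0.38, 95% interval -0.57 to 1.07, adjusted p = 0.945 in edgeR), and its sign turned without withdrawn mouse 5 (-0.029) and without the 3 mice (-0.055).

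Chrna4, which encodes the α4 subunit, ranged from 25.6 to 54.9 TPM in naïve mice (median 36.7 TPM) and had 39.7, 48.7, 36.3, 27.2 and 31.4 TPM in withdrawn mice. In TPM all withdrawn mice lay within the naïve range, whereas in CPM withdrawn mouse 4 (38.6 CPM) was below the lowest naïve mouse (44.4 CPM). The log2 fold change was -0.13 (SE 0.23, 95% interval -0.61 to 0.36, adjusted p = 0.954 in edgeR) and 0.07 without the 3 mice. Chrnb2 (ENSMUSG00000027950, chr3:89746195-89764632, minus strand), for the β2 subunit, ranged from 5.36 to 7.73 TPM in naïve mice (median 6.95 TPM). It had 2.91, 9.77, 2.94, 6.79 and 6.45 TPM in withdrawn mice, so that withdrawn mice 1 and 3 were below and withdrawn mouse 2 above all naïve mice. For Chrnb2 the log2 fold change was -0.33 (SE 0.36, 95% interval -1.10 to 0.44, adjusted p = 0.911 in edgeR), and -0.62 without withdrawn mouse 2, -0.18 without withdrawn mouse 1 and -0.25 without the 3 mice. Exons of Adar on the opposite strand share 1365 bases with Chrnb2, 16.3% of its exon length, and since the sources used here do not say whether reads were counted by strand, its counts are uncertain to that extent. The opposite-strand overlaps of Chrm1 and Chrm2 were smaller, 5.07% with Gm22820 and 2.35% with 9330158H04Rik.

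Chrna7 (ENSMUSG00000030525, chr7:63098692-63212569, minus strand), whose product forms a fast channel with high calcium permeability, had the widest interval of the 7 genes. It ranged from 0.697 to 9.00 TPM in naïve mice (median 7.91 TPM) and had 4.86, 1.25, 4.83, 5.21 and 4.26 TPM in withdrawn mice. On log2 CPM, no withdrawn mouse was above the naïve median, but naïve mouse 1, with 13 counts, was the lowest of all, below withdrawn mouse 2 with 16 counts. The log2 fold change was -0.68 (SE 0.59, 95% interval -1.94 to 0.58, unadjusted p = 0.267 and adjusted p = 0.877 in edgeR). Leaving out naïve mouse 1 gave -0.90, leaving out withdrawn mouse 2 gave -0.47, and leaving out the 3 mice gave -1.14, and none of these passed the test.

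**Figure D3:**
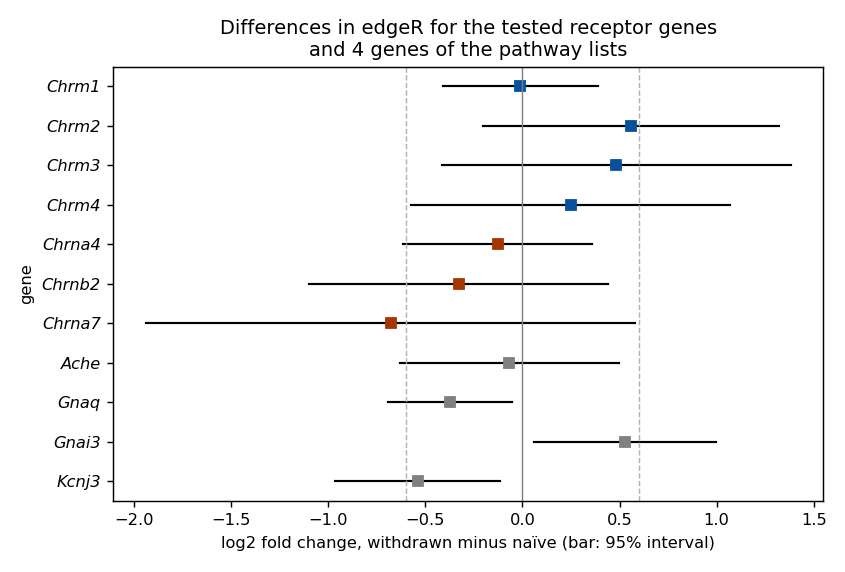
Log2 fold change, withdrawn minus naïve, with its 95% interval in edgeR for the 7 tested receptor genes (blue, muscarinic; brown, nicotinic) and 4 genes of the pathway lists (grey). Dashed lines mark the fold threshold of 0.6, and the intervals of all 7 receptor genes include 0.

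The 3 genes of the chromosome 9 cluster reached 3 counts in only some of the mice, Chrna3 in 6, Chrna5 in 3 and Chrnb4 in 2 of the 11. Chrna5 had 97 counts in naïve mouse 2, 18 in naïve mouse 6 and 28 in withdrawn mouse 1, and at most 1 count in each of the other mice. Chrna3 had 39, 20 and 7 counts in naïve mice 2, 3 and 6, and 5, 128 and 22 counts in withdrawn mice 1, 2 and 4, with at most 1 count elsewhere. Chrnb4 reached 8 counts in withdrawn mouse 2 and 3 counts in withdrawn mouse 5, and stayed below 3 counts in the other mice. The mice with counts of 1 of the 3 genes were thus not always those with counts of the others: of the 3 mice with Chrna5, all had Chrna3 at 5 counts or more, but withdrawn mouse 2, highest in Chrna3, had no count of Chrna5. On log2 CPM the groups overlapped for each gene, with a difference, withdrawn minus naïve, of 0.84 for Chrna3 and -0.32 for Chrna5 (two-sided exact permutation tests, p = 0.561 and p = 0.838, unadjusted). Without the 3 mice both passed the filter, with log2 fold changes of 3.20 and -0.10 (adjusted p = 0.789 and adjusted p = 0.997 in edgeR). The withdrawn mice left in that fit, 1 and 2, had 5 and 128 counts of Chrna3. For Chrnb4 the difference was 1.13 (p = 0.0152 in the same exact test, unadjusted), which rests on at most 8 counts per mouse, with 1 count in 1 of the 6 naïve mice and counts in 4 of the 5 withdrawn mice.

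**Figure D4:**
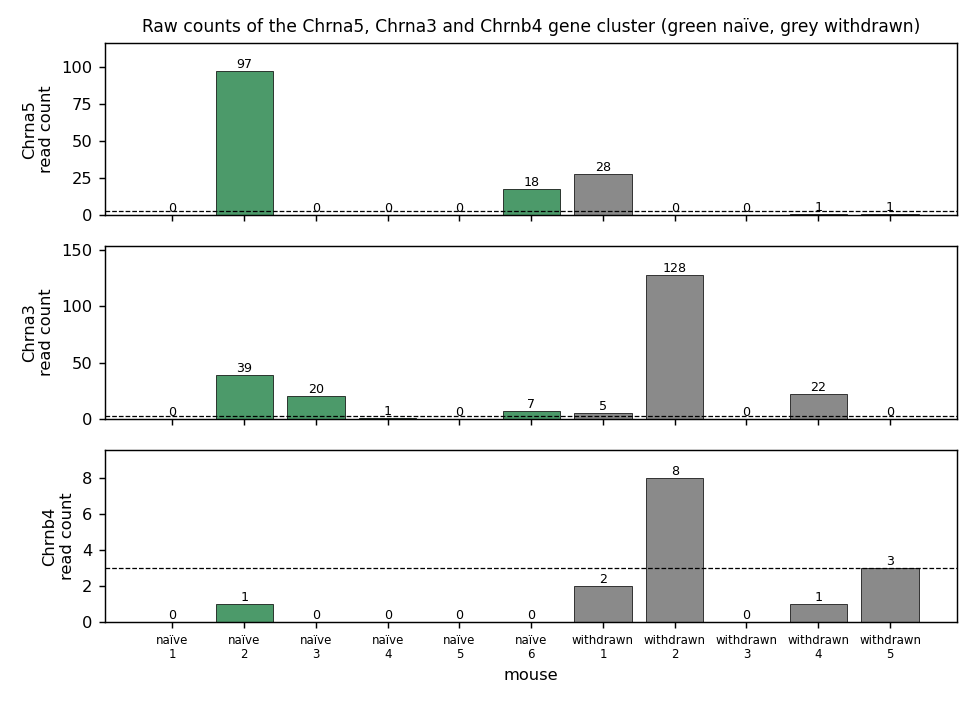
Raw read counts of Chrna5, Chrna3 and Chrnb4 in each mouse (green, naïve; grey, withdrawn), with the floor of 3 counts as a dashed line. Counts come from few mice, up to 97 for Chrna5, 128 for Chrna3 and 8 for Chrnb4.

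Of the 21 pairs among the 7 genes, none had an adjusted p under 0.05 on log2 CPM. The pair with the highest correlation was Chrm1 and Chrm4, with Pearson's r of 0.58 (permutation p = 0.0593, adjusted 0.994) and Spearman's rho of 0.74 (permutation p = 0.0125, adjusted 0.262), and r was 0.87 without withdrawn mice 2 and 4, those farthest from the median of Chrm1. Leaving out the same mice moved r of Chrm1 and Chrna4 from 0.26 to -0.66. For Chrna4 and Chrnb2, r was -0.06 and rho 0.13. With group means removed, the genes most like Chrm1 over the 11 mice among 17092 others were Nup210, Drp2 and Car10 (r of 0.95 for each), and Chrm4 had an r of 0.62. Those most like Chrnb2 were Spc24, Iqub and Gm6931 (r of 0.93, 0.92 and 0.91), and Chrna4 had an r of -0.16 with it. These are the highest of many values and carry no p.

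Other receptor genes of both families were scarce. Of 11, all in the files, 3 passed the filter (Chrm5, Chrnb1 and Chrnb3), with 2 positive and 1 negative log2 fold change and no unadjusted p under 0.05. The 2 with the highest level, Chrnb1 and Chrnb3, had medians of 1.27 and 0.692 TPM. Of 10 genes for assembly factors and modulators of nicotinic receptors, 9 were tested, with 4 positive and 5 negative and none under an unadjusted p of 0.05. Ly6e and Ly6h, of the Ly6 family of small surface proteins that bind nicotinic receptors, had the highest levels, with medians of 278 and 135 TPM over all mice and log2 fold changes of 0.11 and -0.27 (-0.21 and -0.24 without the 3 mice).

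Several intracellular partners of the muscarinic receptors were abundant, and none of the genes in the lists for other receptors, acetylcholine turnover, assembly, signalling, regulators and channels met the thresholds in edgeR or DESeq2. In the Gq list all 12 genes were tested, with 6 positive and 6 negative. Prkcb, which encodes a protein kinase C isoform, had a median of 333 TPM. Gnaq, for the Gq α subunit, was the only one of the 12 with an unadjusted p under 0.05, beside 7.22% of all tested genes. It ranged from 209 to 309 CPM in naïve mice (median 233 CPM) and had 182, 155, 227, 184 and 197 CPM in withdrawn mice. In CPM only withdrawn mouse 3 was within the naïve range. In TPM withdrawn mice 3, 4 and 5 (104, 105 and 99.4 TPM) were within it (98.6 to 159 TPM). The log2 fold change of Gnaq was -0.37 (SE 0.15, unadjusted p = 0.0248 and adjusted p = 0.567 in edgeR). Without the 3 mice it was -0.59 (unadjusted p = 0.0238 and adjusted p = 0.789 in edgeR).

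In the Gi list all 11 genes were tested, with 5 positive and 6 negative. Gnai1 and Gnaz, for α subunits of the Gi family, were the most abundant, at 326 and 134 TPM, and Gnai3, for another of these subunits, was the only one of the 11 with an unadjusted p under 0.05, beside 7.22% of all tested genes. Gnai3 ranged from 31.4 to 54.8 CPM in naïve mice (median 37.3 CPM) and had 69.3, 63.5, 54.8, 63.9 and 44.9 CPM in withdrawn mice. Its log2 fold change was 0.53 (SE 0.22, unadjusted p = 0.0302 and adjusted p = 0.614 in edgeR), with 4 of 5 withdrawn mice above the highest naïve mouse by a margin that was small for mouse 3. Without the 3 mice it was 0.64 and no longer had an unadjusted p under 0.05 (unadjusted p = 0.0704 and adjusted p = 0.789 in edgeR). Among 12 regulators of muscarinic signalling (genes for RGS proteins, receptor kinases and arrestins, and Prickle1), 5 were positive and 7 negative with none under an unadjusted p of 0.05, and Rgs4 and Rgs7, which speed the shut-off of G proteins, led with 746 and 104 TPM.

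Of 8 genes for the M-current and GIRK channels, through which these receptors act on membrane potential, 7 were tested, with 1 positive and 6 negative. Kcnj9, for GIRK3, had the highest level, 143 TPM. Kcnj3, for GIRK1, was the only one of the 7 with an unadjusted p under 0.05, beside 7.22% of all tested genes. It ranged from 49.9 to 85.4 CPM in naïve mice (median 75.6 CPM) and had 59.7, 37.0, 46.2, 49.8 and 48.7 CPM in withdrawn mice. In CPM withdrawn mouse 1 alone lay within the naïve range, with withdrawn mouse 4 just below it. In TPM withdrawn mice 1 and 4 (36.6 and 33.7 TPM) both lay within the naïve range (30.4 to 52.3 TPM). The log2 fold change of Kcnj3 was -0.54 (SE 0.20, unadjusted p = 0.0164 and adjusted p = 0.491 in edgeR). Without the 3 mice it was -0.58 and no longer had an unadjusted p under 0.05 (unadjusted p = 0.0962 and adjusted p = 0.790 in edgeR). Exons of Gm26794 on the opposite strand share 31.1% of its exon length, which makes its counts uncertain.

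The enzymes that break down acetylcholine had unlike values. Ache, for acetylcholinesterase, had a median of 43.0 TPM and a log2 fold change of -0.07 (SE 0.26, adjusted p = 0.980 in edgeR), or -0.30 without the 3 mice, and naïve mouse 5 was its lowest at 18.5 TPM. Colq, for the collagen tail of the enzyme, had 1.87 TPM. Of 7 genes in this list, 4 were tested. Bche, for butyrylcholinesterase, was the only one of the 4 with an unadjusted p under 0.05 in edgeR, beside 7.22% of all tested genes. It ranged from 0 to 7.63 CPM in naïve mice (median 0.666 CPM) and had 113, 0, 129, 220.2 and 38.1 CPM in withdrawn mice, so that 4 of 5 withdrawn mice were above all naïve mice and withdrawn mouse 2 was at 0. In edgeR its log2 fold change was 5.45 (SE 1.32, unadjusted p = 0.00106 and adjusted p = 0.175), and DESeq2 gave an adjusted p of 0.0609. Without withdrawn mouse 2 it was 5.75 and met the thresholds (adjusted p = 0.0167 in edgeR), and without the 3 mice it was 4.63 (adjusted p = 0.789 in edgeR). The summed fibroblast markers were 1318, 18.4, 672, 927 and 225 CPM in withdrawn mice 1 to 5, lowest in the mouse without Bche. Col1a1, Col1a2 and Ogn were the highest genes of the list in withdrawn mice 1, 3, 4 and 5. Dcn and Col3a1 were, among withdrawn mice, also lowest in mouse 2 (5.26 and 0.560 CPM). Of the 8 genes, 6 were tested and all were positive. An unadjusted p under 0.05 in edgeR was found for 5 of them, beside 7.22% of all tested genes, and none met the thresholds in edgeR. Slc6a13, Lum and Igf2 did not follow the sum. Slc6a13 was highest in withdrawn mouse 2 (6.94 CPM), Slc6a13 and Lum were 0 in withdrawn mice 3 and 5, and Igf2 stayed at or below 0.288 CPM in withdrawn mice. With a score of all non-neuronal marker lists as a covariate, the log2 fold change of Bche was 3.82 (adjusted p = 0.569 in edgeR), and the part of the fibroblast markers alone was not tested.

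**Figure D5:**
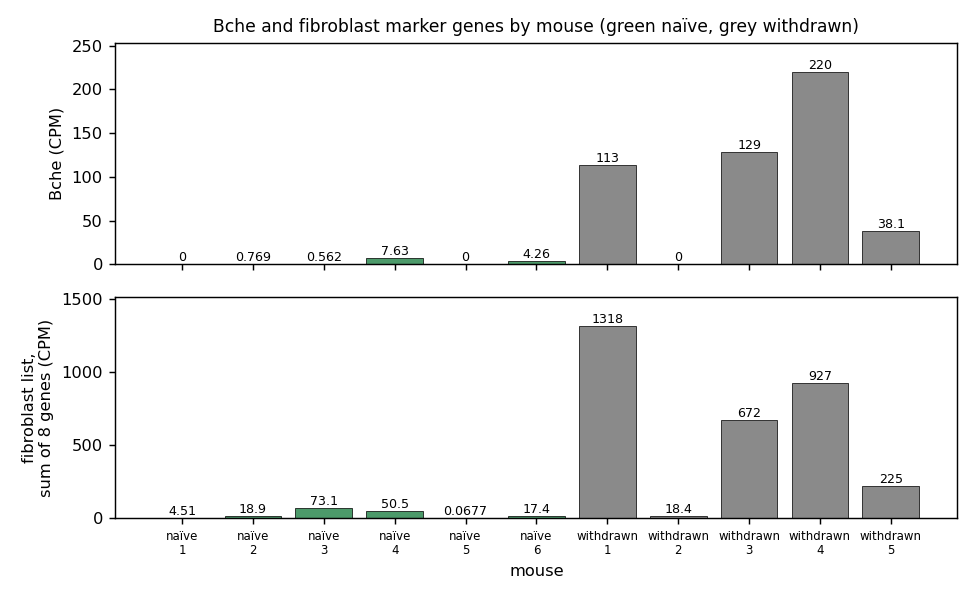
CPM of Bche (top) and summed CPM of 8 fibroblast marker genes (bottom) in each mouse (green, naïve; grey, withdrawn). Withdrawn mice 1, 3, 4 and 5 have the highest values in both panels, and withdrawn mouse 2 has 0 CPM of Bche and 18.4 CPM of the fibroblast list.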

How the data were processed

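RNA was sequenced from mPFC CRF1+ neurons of 11 male CRF1:GFP mice. Libraries were made from 160 pg of RNA. The authors used cutadapt for trimming, STAR for mapping to GRCm38 and HTSeq for counting. The deposited files hold raw counts per Ensembl gene for each mouse, neither normalized nor pooled, and a strand setting for HTSeq is not given in the sources used here. Symbols, coordinates and summed exon lengths came from GENCODE M21, and promoter sequences from RefSeq on GRCm38.p6.

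Groups follow the title and treatment of each sample. Counts were compared with edgeR 4.0.16 in R 4.3.3 (TMM, filterByExpr with minimum count 10 and minimum total 15, quasi-likelihood test, Benjamini-Hochberg adjustment over 17093 genes), and alternatively with DESeq2 1.42.0 and limma 3.58.1 (voom). Standard errors are the log2 fold change divided by the square root of F. For log2 CPM the prior count was 2. Values of 1 gene were compared by exact permutation over all 462 splits of the mice, where the smallest p is 0.00216. Correlations used 100000 resamples. Among the 25 pairs of libraries within groups, the lowest chi-square per degree of freedom was 28.9, so no pair differed by counting error alone. Pairs across groups, where the source names repeat animal numbers, were not compared in this way. The measure cannot show whether separately amplified libraries came from the same animal. The tests were first run on simulated counts with changes larger than those of the tested receptor genes. The outcome does not bear on differences of the size seen here. Depth floors cover counting error only, since the cDNA was amplified.

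The receptor genes and the lists were chosen with earlier results of these data known. Named from each list were the 2 genes with the highest level per length and genes with an unadjusted p under 0.05, except that some of these genes are not reported here. For Chrm1 and Chrnb2 the 3 genes most alike were named. Chrm5, Prickle1 and single genes of the cell type marker lists were named after their values were seen. By their titles, mice that share a replicate number across groups are separate animals. Alternatives were other normalizations, filters, tests and covariates, a replicate block, and mice left out. Those for Bche were added after seeing the data.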

Additional observations from a re-analysis of the deposited data

Results flagged for a closer look

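In 8 of 56 sets of log2 CPM values (1 gene in 1 group), 1 mouse stood apart from the rest of its group, while about 1 set in 20 would do so by chance. For the receptor genes, withdrawn mouse 1 was high in Chrna5 at 1.11 (28 counts, the others from -2.80 to -1.91). Naïve mouse 1 was low in Chrna7 at 0.62 (13 counts, the others from 2.73 to 3.75), and withdrawn mouse 2 was low in Chrna7 at 0.95 (16 counts, the others from 2.66 to 2.97). Naïve mouse 2 was high in Chrnb4 at -2.33, from 1 count. Among the pathway genes, naïve mouse 5 was low in Ache at 4.76 (397 counts) and in Colq at -2.80 (0 counts). Withdrawn mouse 2 was low in Bche at -2.80 (0 counts, the others from 5.26 to 7.78), and withdrawn mouse 4 was low in Gnai1 at 7.93 (1982 counts).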

How the results depend on the processing

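No receptor gene met the thresholds in any of the 23 alternatives. The number of receptor genes with an unadjusted p under 0.05, 0 in edgeR, was 1 with voom (Chrnb2, log2 fold change -0.74), 1 without the low-count filter (Chrnb4), 1 when a non-neuronal marker score was a covariate (Chrm2, 0.76), and 0 to 1 with a mouse left out (1 without naïve mouse 5, Chrm2, 0.78). The log2 fold change of Chrm1 turned positive with 10 counts required in every mouse (0.029), DESeq2's Wald test (0.015, also without Cook's cutoff), DESeq2 size factors (0.015), the covariate (0.046) and without the 3 mice with conflicting labels (0.070), and ranged from -0.13 to 0.13 with a mouse left out. Chrm4 was -0.055 without the 3 mice and -0.029 to 0.36 with a mouse left out. Chrna4 was 0.042 with the covariate and 0.072 without the 3 mice. The other receptor genes in the fit kept their sign. The cause was not tested.

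Over all genes, 1 met the thresholds in edgeR, against 362 with DESeq2 (342 higher, 20 lower), 372 without Cook's cutoff (350 higher, 22 lower), 137 without the filter, 30 with 10 counts in every mouse, 26 with the number of genes detected as covariate, 0 with the non-neuronal covariate, 0 without the 3 mice, and 0 to 193 with a mouse left out (193 without withdrawn mouse 2). A replicate block gave 0 genes. By the titles, same-numbered mice are separate animals, and the correlations of same-numbered mice ran from -0.20 to 0.18. DESeq2 and no filter shifted the median log2 fold change of all genes to 0.25 and 0.17. Bche, whose alternatives were added after seeing the data, met the thresholds without the filter (5.42, adjusted p = 0.0170 in edgeR) and without withdrawn mouse 2 (5.75), was 3.82 with the non-neuronal covariate, and its adjusted p ranged from 0.0167 to 0.789.

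With 11 mice and 160 pg of RNA per library, the 95% interval of the log2 fold change was narrowest for Chrm1 (-0.41 to 0.39) and widest for Chrna7 (-1.94 to 0.58) among the 7 tested genes. Chrna3, Chrna5 and Chrnb4 lay near the floor of 3 counts in most mice.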
